A study of Mus musculus with 11 samples.

Results

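Aged tibialis anterior muscle that had received young serum of any kind was compared with aged muscle that had received saline. The 7 serum libraries, 4 from young serum and 3 from young serum depleted of extracellular vesicles (EVs), were taken as 1 group and set against the 4 saline libraries, so all 11 libraries of the series entered the comparison. All mice were of the C57BL/6 strain and 21 to 24 months old, and the muscle belonged to an injury model that the labels name without detail. The labels give the injection as Saline, Young serum or Depleted young serum; the age of the serum donors, the dose and the interval to sampling are not given in the sources used here. Nor do they tie libraries to individual mice, so the p-values measure the spread between these libraries, part of which may be technical. Of the 18269 genes in the CPM table (CPM: reads of a gene per 1000000 reads of the library), 13187 reached 1 CPM in at least 3 libraries and were tested.

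The tibialis anterior is a mostly fast-twitch muscle of the lower leg. With age such muscle loses mass and repairs itself less well, and exposing old animals to young blood or serum is a classical way to ask whether circulating factors alter the tissue. EVs are membrane-bound particles that carry protein, lipid and RNA between cells. A response shared by intact and EV-depleted serum is one that the remaining serum could carry. Pooling the sera gives a mean over both, with more libraries on the serum side. A pooled difference can come mainly from either serum, so it need not be a shared response.

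The spacing of the lowest CPM values showed that 1 CPM was worth 36.4 to 42.3 reads, depending on the library. The labelled tissue showed its markers: all 11 mature fast-fibre genes were tested, and together they made up 184500 to 252400 CPM in every library. The saline libraries varied most: on the log2(CPM + 1) scale the median SD of a gene was 0.30 among them and 0.20 across the 7 serum libraries. Saline 4 had a summed adipocyte marker level of 14790 CPM, where the other 10 libraries had 1993 to 3254 CPM. Saline 6 had a summed slow-fibre level of 6035 CPM, where the others had 351 to 2653 CPM. For many of the results below, values without these libraries are also given.

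Few genes passed the test: 5 of 13187 (0.0379%) reached an adjusted p under 0.05 in limma, with Benjamini-Hochberg adjustment over all genes. Nrap, 3425401B19Rik and Uaca rose with serum (3 genes called higher, 0.0227%), and Kazald1 and Prxl2b fell (2 genes called lower, 0.0152%). The size of these differences lay between a 1.5-fold and a 1.76-fold higher level, and between 0.524 and 0.650 of the saline level. In all 5 genes every serum library lay beyond every saline library. Such separation was seen for 181 tested genes in the higher direction (1.37%) and 224 in the lower direction (1.7%).

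Nrap encodes a nebulin-related anchoring protein that ties actin filaments to the membrane at the ends of muscle fibres and takes part in building new myofibrils. Its level was 1062, 995, 797 and 958 CPM in saline 2, 3, 4 and 6. In the serum libraries it was 1545 at the lowest, 1614 at the median and 1946 CPM at the highest. No serum library came near the saline range, and both sera contributed. The mean was 953 ± 113 CPM (SD, n = 4) with saline and 1671 ± 139 CPM (SD, n = 7) with serum, a log2 difference of 0.81 ± 0.10 (SE; limma adjusted p = 0.0283). On mm10 Nrap lies at chr19:56320035-56390037, 3425401B19Rik at chr14:32659119-32685293, Uaca at chr9:60794542-60880370, Kazald1 at chr19:45075241-45079289 and Prxl2b at chr4:154895504-154899135, each position spanning the whole gene.

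3425401B19Rik, also known as Cefip, encodes a protein of the muscle Z-disc, where thin filaments of neighbouring sarcomeres are anchored. It carries a clone name and so fell outside the rule for naming genes; it is named here because it is 1 of only 5 calls. Its level was 225, 165, 171 and 152 CPM in saline 2, 3, 4 and 6, and ran from 275 over a median of 320 to 345 CPM with serum. Saline 2 was the highest saline library and still lay below all 7 serum libraries. The log2 difference was 0.82 ± 0.11 (limma adjusted p = 0.0283). The 4 young serum libraries averaged 332 ± 14.6 CPM and the 3 EV-depleted ones 286 ± 9.01 CPM, and the log2 difference between the sera was 0.22 with a 95% interval from -0.06 to 0.49.

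Uaca encodes a coiled-coil and ankyrin-repeat protein studied in the control of apoptosis. Its level was 192, 175, 167 and 165 CPM in the saline libraries and 239 to 302 CPM with serum, with a median of 251. The spread was narrow in both groups, and the log2 difference of 0.59 ± 0.09 gave a limma adjusted p of 0.0400. Kazald1 encodes a secreted protein with a Kazal-type protease inhibitor domain and an insulin-like growth factor binding domain. It was a low-level transcript, at 9.50, 11.5, 7.55 and 9.65 CPM in saline 2, 3, 4 and 6. With serum it ran from 3.98 over a median of 4.31 to 5.21 CPM. The fall by 0.93 ± 0.12 on the log2 scale (limma adjusted p = 0.0283) was almost the same with young serum (-0.93) and EV-depleted serum (-0.94). Prxl2b encodes a thioredoxin-like prostaglandin F synthase of the peroxiredoxin-like family. Its level was 146, 177, 162 and 182 CPM with saline and 97.2 to 120 CPM with serum, with a median of 110 CPM, and it fell by 0.62 ± 0.09 on the log2 scale (limma adjusted p = 0.0381).

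**Figure D1:**
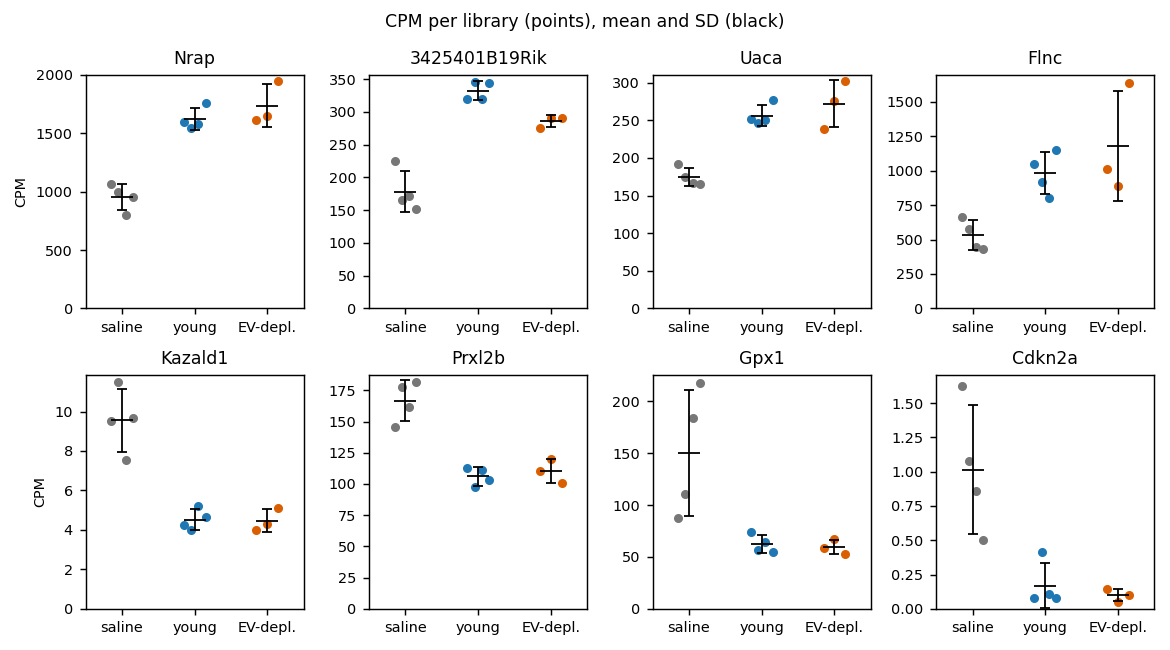
CPM (vertical axis, linear, from 0) in each library for the 5 called genes and for Flnc, Gpx1 and Cdkn2a, with saline in grey, young serum in blue and EV-depleted serum in orange; black bars give mean and SD per group. In each panel the points of both sera lie on the same side of all 4 saline points, for example 1545 to 1946 CPM against 797 to 1062 CPM for Nrap.

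The promoters of the 3 called genes with the largest differences are shown so that the muscle gene that rose, the Z-disc gene that rose and the secreted factor that fell can be set side by side. They are RefSeq sequences of build GRCm38.p6, 300 bases each, 5′ to 3′ on the gene's own strand, and capitals mark matches to the E-box CANNTG, the site that myogenic and clock basic helix-loop-helix factors bind.
Nrap chr19:56389989-56390288 (- strand): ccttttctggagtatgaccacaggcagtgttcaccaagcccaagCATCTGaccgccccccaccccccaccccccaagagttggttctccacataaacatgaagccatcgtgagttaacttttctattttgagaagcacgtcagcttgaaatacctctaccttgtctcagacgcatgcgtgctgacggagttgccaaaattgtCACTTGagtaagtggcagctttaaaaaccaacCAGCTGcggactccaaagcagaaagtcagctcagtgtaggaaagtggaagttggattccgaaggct
3425401B19Rik chr14:32685223-32685522 (- strand): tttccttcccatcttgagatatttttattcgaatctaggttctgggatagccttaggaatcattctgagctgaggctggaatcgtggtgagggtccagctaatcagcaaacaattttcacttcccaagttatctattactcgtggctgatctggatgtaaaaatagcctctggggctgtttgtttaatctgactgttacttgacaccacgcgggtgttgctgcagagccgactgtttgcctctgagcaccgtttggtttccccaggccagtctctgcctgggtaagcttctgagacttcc
Kazald1 chr19:45074991-45075290 (+ strand): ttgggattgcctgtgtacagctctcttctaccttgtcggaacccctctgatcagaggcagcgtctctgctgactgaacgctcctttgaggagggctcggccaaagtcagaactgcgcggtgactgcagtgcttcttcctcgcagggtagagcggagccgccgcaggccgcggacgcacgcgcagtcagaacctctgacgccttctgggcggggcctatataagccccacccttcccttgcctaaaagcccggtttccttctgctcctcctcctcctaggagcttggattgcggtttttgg
Nrap has 3 E-box matches in this window, 3425401B19Rik and Kazald1 have 0, Uaca has 1 and Prxl2b has 2. The E-box was searched on both strands, and 72.3% of 32851 mouse promoters of the same length hold at least 1. None of the 5 windows holds the letters of a MEF2 site (3.2% of promoters), a CArG box (1.6%) or the M-CAT element CATTCC (14.7%), which were searched on both strands too. A match is a description of the letters in this window only.

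The calls depended on which libraries were included. Leaving out saline 3, or any 1 of the 7 serum libraries, left 0 genes called in either direction, with the adjusted p-values of the 5 genes between 0.0522 and 0.195; median-of-ratios scaling and weights by group also left 0. Without saline 4 only Kazald1 was still called, and without saline 6 Nrap was called together with Ighm (adjusted p = 0.0046), the heavy chain gene of immunoglobulin M. Without saline 2 the count went the other way, to 780 genes higher and 858 lower, with all 25 named genes (12 in each direction by rule, and 3425401B19Rik) among them. The direction of the 25 named genes did not reverse in any of the 23 alternatives tried. At an unadjusted p under 0.05, 1692 genes were higher (12.8%) and 1698 lower (12.9%), where 659 in both directions together would be expected if no gene differed.

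The 10 further genes with the smallest p-values among those higher with serum did not pass the test, at limma adjusted p-values of 0.0645 to 0.0833. Several encode large structural proteins. Flnc encodes filamin C, an actin crosslinker that gathers at the Z-disc and at sites of fibre strain. Its level was 667, 573, 448 and 435 CPM in the saline libraries and 803 to 1636 CPM with serum, with a median of 1009, and its log2 difference of 0.99 ± 0.18 was the highest of the named genes. EV-depleted 4 gave the highest value, and the groups did not overlap. Plec encodes plectin, which links the cytoskeleton to membranes and Z-discs, and averaged 508 ± 108 CPM with saline and 840 ± 99.7 CPM with serum. Col22a1 encodes a collagen confined to tissue junctions such as that between muscle and tendon, and averaged 10.8 ± 1.99 against 19.3 ± 3.02 CPM.

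The other 7 have varied roles. Kcnc1 encodes a fast voltage-gated potassium channel and averaged 59.7 ± 7.92 CPM with saline and 93.9 ± 11.9 CPM with serum. Traf3, an adaptor that restrains noncanonical NF-kappaB signalling, averaged 18.2 ± 4.34 and 30.9 ± 2.95 CPM. Rps6ka2 encodes a kinase downstream of ERK (122 ± 16.4 and 173 ± 10.4 CPM), and Mtcl1 a microtubule crosslinking protein (3.36 ± 0.421 and 5.67 ± 0.442 CPM). Fam20b, a kinase that primes proteoglycan chains, averaged 53.5 ± 7.23 and 81.1 ± 6.42 CPM. The ubiquitin ligase gene Herc3 averaged 41.6 ± 4.16 and 59.4 ± 4.36 CPM. Zfp651, a zinc-finger gene, averaged 173 ± 13.2 and 246 ± 15.6 CPM. In each of these 10 genes all 7 serum libraries lay above all 4 saline libraries, as for 1.37% of all tested genes. Picking genes by the smallest p favours such separation, so it is no further result about them.

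Among genes lower with serum, 10 further genes likewise did not pass, at adjusted p-values of 0.0645 to 0.0891. Gpx1 encodes the main cytosolic glutathione peroxidase, which reduces hydrogen peroxide. Its level was 87.8, 111, 184 and 217 CPM in saline 2, 3, 4 and 6, and 52.6 to 73.5 CPM with serum, with a median of 58.9. Saline 4 and 6 were the highest, yet saline 2, the lowest, lay above every serum library. The log2 difference was -1.20 ± 0.21 over all libraries, and -0.69 without saline 4 and 6. Pgk1 encodes phosphoglycerate kinase, a step of glycolysis that yields ATP, and was at 625, 704, 579 and 618 CPM with saline and 363 to 472 CPM with serum, with a median of 415. Dhrs7c, a sarcoplasmic reticulum enzyme of muscle, averaged 196 ± 13.6 and 141 ± 10.2 CPM.

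Several of these lower genes belong to blood and immune cells. Ighm was at 350, 363, 326 and 189 CPM in saline 2, 3, 4 and 6, and at 120 to 183 CPM with serum, with a median of 137. Saline 6 lay close to the highest serum library, young serum 1. The log2 difference was -1.04 ± 0.17 over all libraries and -1.26 without saline 6. Lsp1, an actin-binding protein of leukocytes, averaged 48.0 ± 10.6 and 23.7 ± 4.57 CPM. Pf4, a chemokine of platelets and macrophages, averaged 10.4 ± 4.02 and 3.88 ± 1.04 CPM. Its log2 difference was -1.18 over all libraries and -0.74 without saline 4 and 6. Vasp promotes actin filament growth and averaged 50.1 ± 6.48 and 30.5 ± 3.79 CPM. Cst3 encodes the secreted protease inhibitor cystatin C (526 ± 55.9 and 353 ± 42.0 CPM). The remaining pair, at under 10 CPM with saline, were Cmtm7, a membrane protein gene (9.07 ± 0.309 and 5.86 ± 0.688 CPM), and Tm7sf2, a sterol reductase of cholesterol synthesis (6.89 ± 0.509 and 4.32 ± 0.580 CPM).

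Whether the sera differed was tested directly, in the model of 3 groups. Its spread was taken over all 11 libraries, saline included. The median SD of a gene was 0.30 among saline, 0.15 among young serum and 0.22 among EV-depleted serum libraries. No gene passed for young serum minus EV-depleted serum (0 of 13187, smallest limma adjusted p 0.99998). An unadjusted p under 0.05 was reached by 294 genes (2.23%), of which 63 were higher and 231 lower with young serum. If no gene differed, 659 would be expected, so the low count does not show that the sera are alike. None of the 25 named genes was among the 294, and their smallest unadjusted limma p was 0.1096, for Col22a1. Both sera lay on the same side of saline for all 25. That side was fixed by the lack of overlap between serum and saline libraries in each of them. The 25 were also picked on the pooled test, which counts a difference between the sera as spread. Genes that differ between the sera were thus less likely to be named, so the 25 give no independent evidence of agreement. The differences between the sera ran from -0.27 for Col22a1 to 0.22 for 3425401B19Rik, with SEs of 0.10 to 0.29. For all 25 genes the 95% interval of that difference stayed within the size of the pooled difference; for Flnc it ran from -0.71 to 0.26 and for Kazald1 from -0.33 to 0.36. These intervals bound a difference between the sera and do not show that the sera act alike, and the contrasts of each serum with saline share the same 4 saline libraries.

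**Figure D2:**
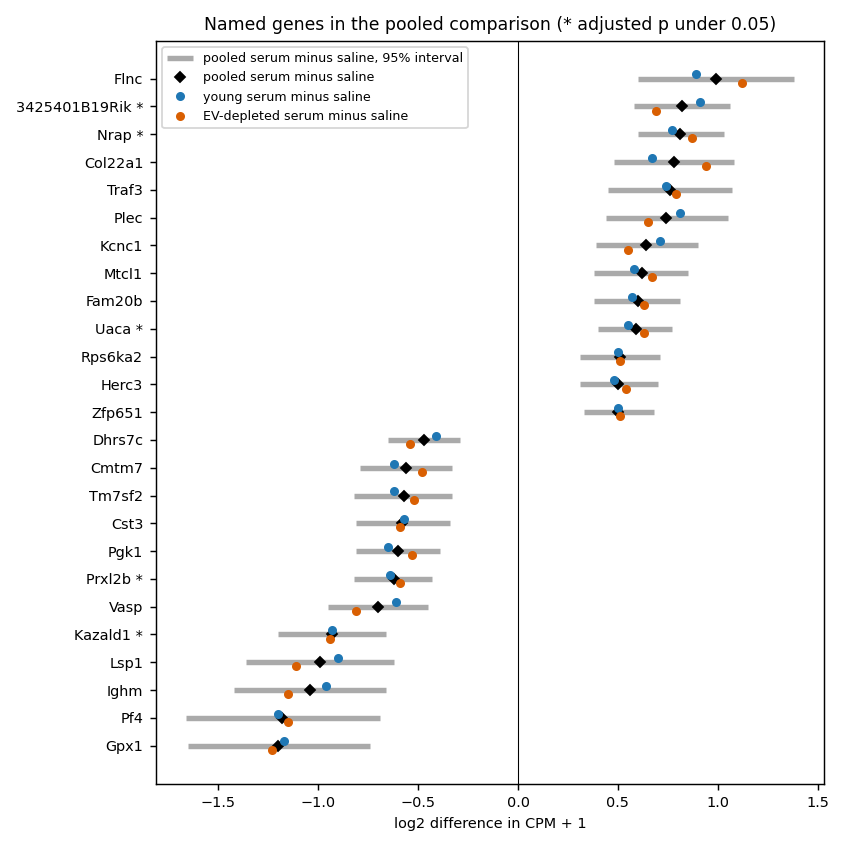
Log2 difference in CPM + 1 (horizontal axis) for the 25 named genes, in order of size; black diamonds and grey bars give pooled serum minus saline with its 95% interval, blue points young serum and orange points EV-depleted serum, each against the same 4 saline libraries. Asterisks mark the 5 genes with an adjusted p under 0.05. Both sera fall on the same side of 0 for all 25 genes, which follows from the lack of overlap with saline in each. The pooled differences run from -1.20 for Gpx1 to 0.99 for Flnc.

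Transcript length moved with the comparison. The 12 genes named as higher by rule had a median summed exon length of 9165 bases and the 12 named as lower 1881.5 bases, against 4289 bases over all tested genes with a length. The median log2 difference went from -0.31 for the 801 genes of at most 1000 bases to 0.23 for the 2274 genes over 8000 bases, and it increased at each step between them. A length index, the mean log2 level of genes over 8000 bases minus that of genes of at most 1000 bases, averaged -0.31 ± 0.48 in the 4 saline and 0.18 ± 0.25 in the 7 serum libraries (two-sided exact permutation p = 0.02121 over the 11 libraries). It was -1.01 in saline 6, and EV-depleted 3, at -0.27, was the 1 serum library within the saline range. With the index as a covariate, an alternative chosen after seeing the data, 0 genes were higher and 2 lower: Ighm and Vasp, both at an adjusted p of 0.0473. Nrap then had a log2 difference of 0.79 and Kazald1 one of -0.91, with adjusted p-values of 0.111 and 0.115. The part of length in the other results was not tested further, and values with the covariate are given beside several gene groups. The index came from these same libraries and holds the longest and shortest members of those groups. It also differed between serum and saline, so medians of long or short genes shrink partly by construction. Such values do not measure the part of length.

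**Figure D3:**
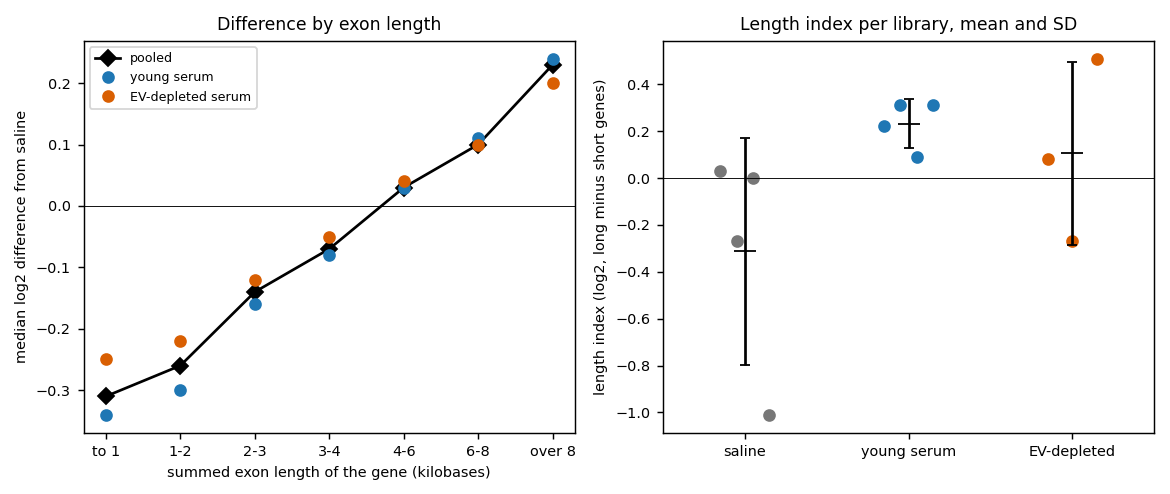
Left, median log2 difference from saline (vertical axis) of the tested genes in 7 bins of summed exon length in kilobases (horizontal axis), for the pooled sera in black and each serum in colour; right, the length index of each library in log2 units with group mean and SD. The medians climb from -0.31 to 0.23, and saline 6 has the lowest index, -1.01.

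Gene groups were read against the whole table, where 6359 of 13187 genes lay above 0 and 6828 below, with a median log2 difference of -0.01. Genes of myofibril assembly and strain, which build and mend the contractile lattice, had a median of 0.26: 22 of 25 lay above 0, 12 had an unadjusted p under 0.05 in that direction (12.8% of all tested genes) and 1 in the other, and only Nrap passed the test. Xirp1, an actin-binding repeat protein of strained fibres, was at 83.4 to 110 CPM with saline and 125 to 221 CPM with serum; it averaged 95.8 ± 11.1 and 162 ± 35.4 CPM. Its difference from saline was 0.56 with young serum and 0.96 with EV-depleted serum, and the sera differed at an unadjusted p of 0.02381. Xirp2 averaged 1128 ± 288 and 1786 ± 327 CPM. The list's median stayed between 0.22 and 0.34 when libraries were left out in turn and was 0.34 with the length covariate.

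Myotendinous junction genes, which anchor the fibre end to tendon, had a median of 0.55, with 11 of 12 above 0 and 7 at an unadjusted p under 0.05 (12.8% of all tested genes in that direction). Nrap, Col22a1 and Xirp1 were the 3 whose groups did not overlap (1.37% of all tested genes in that direction). The list score, the mean centred log2 level of the members, was -0.42 to -0.16 in the saline libraries and -0.14 to 0.53 in the serum libraries, so all 7 serum libraries lay above all 4 saline libraries. Tln2, the talin that links integrins to actin in muscle, averaged 86.8 ± 26.4 and 123 ± 17.3 CPM. The median was 0.41 without saline 4 and 6 and 0.24 with the length covariate. Markers of tendon cells had a median of 0.36, with 8 of 10 tested above 0. Their summed level was 136 to 219 CPM with saline and 156 to 283 CPM with serum, and 1 of the 11 markers, Mkx, was below the filter. Chad, a cartilage and tendon matrix protein, averaged 2.91 ± 2.29 and 7.18 ± 3.32 CPM. The part of tendon cells in the junction genes was not tested.

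The giant sarcomere and M-band genes, whose products span or brace the sarcomere, lay above 0 in 16 of 16 cases with a median of 0.59. Of these, 10 had an unadjusted p under 0.05 (12.8% of all tested genes in that direction). Plec was the 1 gene without overlap (1.37% of all tested genes in that direction). Dmd, the gene of dystrophin, was at 25.9 to 97.0 CPM with saline and 63.5 to 174 CPM with serum and averaged 57.5 ± 29.6 and 116 ± 34.2 CPM. Alpk3, a muscle kinase-like gene, averaged 158 ± 29.9 and 231 ± 24.9 CPM, and Speg, a kinase of the triad, 325 ± 104 and 511 ± 76.1 CPM. Ttn, the gene of titin, had a log2 difference of 0.62 ± 0.36 (limma adjusted p 0.2707). These are among the longest transcripts of muscle, and those over 8000 bases are part of the length index itself. With the length covariate the list's median was 0.18. Without saline 6, the library with the lowest length index, the list's median was 0.40.

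Glycolytic enzymes, which break glucose down to pyruvate and lactate, had a median of -0.21, with 14 of 17 below 0, 7 at an unadjusted p under 0.05 and 4 without overlap between the groups. Of all tested genes 12.9% were lower at that p and 1.7% were lower without overlap. The list score was 0.06 to 0.21 in the saline libraries and -0.18 to 0.05 in the serum libraries, again without overlap. Gapdh, often used as a reference gene, was at 1329 to 1902 CPM with saline and 992 to 1247 CPM with serum, and averaged 1545 ± 252 and 1138 ± 91.3 CPM. Pgam2, the muscle phosphoglycerate mutase, averaged 2128 ± 188 and 1587 ± 180 CPM, and Eno1 90.5 ± 26.0 and 60.9 ± 8.49 CPM. The list median stayed at -0.26 to -0.19 with any 1 library left out and was -0.25 with the length covariate. Pfkm, the gene of the rate-setting muscle phosphofructokinase, was among the 3 above 0, at 0.13 ± 0.11 (adjusted p 0.4459). Genes of glycogen metabolism had a median of 0.20, with 14 of 17 above 0, and the median was 0.04 with the length covariate. Of the 17, 2 were higher at an unadjusted p under 0.05, no more than the 12.8% of all tested genes.

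Antioxidant enzymes, which remove peroxides and superoxide or keep thiols reduced, had a median of -0.28, with 22 of 28 below 0 and 10 at an unadjusted p under 0.05 (12.9% of all tested genes in that direction). Prxl2b fell, and Gpx1, Txn1 and Hmox1 were among the 6 genes without overlap (1.7% of all tested genes in that direction). Txn1, thioredoxin, was at 39.2 to 60.2 CPM with saline and 27.6 to 37.9 CPM with serum, and averaged 47.9 ± 9.60 and 32.0 ± 3.55 CPM. Hmox1, the haem-degrading enzyme, averaged 8.37 ± 2.13 and 5.20 ± 0.519 CPM. The list score did not overlap between the groups, at -0.01 to 0.46 with saline and -0.29 to -0.02 with serum. Saline 4 and 6 held the highest scores, 0.46 and 0.30; without both, the median was -0.09, and it was -0.17 with the length covariate. Sod1, the cytosolic superoxide dismutase, had a log2 difference of -0.44 ± 0.15 (limma adjusted p 0.1224).

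Ribosomal and respiratory chain genes were mostly below 0 but did not separate the groups. Cytosolic ribosomal protein genes lay below 0 in 76 of 76 cases with a median of -0.56. Of these, 48 had an unadjusted p under 0.05 (12.9% of all tested genes in that direction), though none passed the adjustment. Rplp1 averaged 476 ± 108 and 297 ± 57.9 CPM. Nuclear genes of respiratory complex I had a median of -0.42 (36 of 37 below 0) and those of complexes II to V one of -0.39 (37 of 39 below 0). Saline 6 had the highest score of the ribosomal list, 1.09, and of the complex I list, 0.94; without it the medians were -0.33 and -0.18. With the length covariate the medians were -0.08 for ribosomal proteins, 0.03 for complex I and 0.10 for complexes II to V. Genes of the TCA cycle and fatty acid oxidation, which also serve the mitochondrion, had a median of -0.02, with 15 of 38 above 0. Their median was -0.17 with young serum and 0.18 with EV-depleted serum. Between the sera, 13 of the 38 had an unadjusted p under 0.05, against 2.23% of all tested genes. Proteasome subunits had a median of -0.21, with 29 of 34 below 0, and a median of -0.07 with the covariate. Many ribosomal protein genes have near-identical pseudogenes that can share reads with them.

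Genes of immune cells and antigen presentation had some of the lowest medians. In whole muscle, fewer cells of a type and less RNA per cell cannot be told apart. MHC class II genes, which present antigen on professional presenting cells, had a median of -1.49, with 7 of 7 tested below 0. All 7 had an unadjusted p under 0.05 (12.9% of all tested genes in that direction). Cd74, the class II invariant chain, was at 61.8 to 403 CPM with saline and 26.8 to 85.9 CPM with serum, so the groups overlapped. Saline 4 had the highest class II score, 2.18, followed by saline 6 at 0.98, and the median was -0.65 without both. Macrophage markers lay below 0 in 17 of 17 tested cases, with a median of -0.86, 10 of them at an unadjusted p under 0.05 (12.9% of all tested genes). Their summed level was 495 to 1000 CPM with saline and 285 to 496 CPM with serum. Fcgr1, Cd86 and Aif1 were below the filter. Fcer1g, a signalling chain of Fc receptors, was at 3.43 to 16.3 CPM with saline and 1.35 to 3.40 CPM with serum, and averaged 7.56 ± 5.93 and 2.31 ± 0.777 CPM. Cd14, a receptor for bacterial products, was the other marker without overlap, at 1.96 to 7.26 and 0.792 to 1.89 CPM. Of all tested genes, 1.7% were lower without overlap. Without saline 4 and 6 the macrophage median was -0.41.

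MHC class I genes had a median of -0.80, with 13 of 14 below 0, and -0.22 without saline 4 and 6; the H2-Q members are near-identical copies whose reads may be shared. Complement genes had a median of -0.59 (15 of 18 below 0; -0.18 without saline 4 and 6, and -0.93 with the length covariate), and the 3 genes of C1q, which macrophages make, had log2 differences of -1.05, -1.01 and -0.93. Interferon response genes had a median of -0.36 (24 of 29 below 0; -0.11 without saline 4 and 6). Bst2, the antiviral tether tetherin, was at 11.7 to 21.9 CPM with saline and 4.98 to 11.6 CPM with serum. Irf7, a regulator of interferon genes, averaged 6.85 ± 2.71 and 3.21 ± 1.36 CPM. Of the 10 B and plasma cell markers 3 passed the filter, and their median was -1.48, or -0.84 without saline 4 and 6; Cd79a, Ms4a1 and Pax5, which mark B cells, did not pass it. Igkc, the kappa light chain, was at 3.88 to 168 CPM with saline and 0.613 to 9.69 CPM with serum. Only 1 of 10 neutrophil markers and 1 of 12 T and NK cell markers were tested, Mmp9 at -0.80 ± 0.38 and Cd3e at -0.81 ± 0.30. Without saline 4 they were at -0.28 and -0.41, and without saline 4 and 6 at -0.13 and -0.23. The 5 mast cell markers tested lay below 0, with a median of -0.96, and -0.24 without saline 4 and 6.

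Adipocyte markers had a median of -1.07 with 17 of 17 tested below 0, and this rested on 1 library. Saline 4 had a list score of 3.42, the other saline libraries -0.61 to 0.28 and the serum libraries -1.34 to 0.14. Without saline 4 the median was 0.11. Fabp4, the fatty acid binding protein of fat and capillaries, was at 125 to 1543 CPM with saline and 71.4 to 123 CPM with serum and did not overlap between groups. Markers of fibro-adipogenic progenitors, the mesenchymal cells of muscle, had a median of -0.45 with 15 of 15 tested below 0, and one of -0.10 without saline 4 and 6. Red blood cell markers had a median of -0.86 (6 of 7 below 0), with a summed level of 416 to 1663 CPM with saline and 349 to 544 CPM with serum, and a median of -0.26 without saline 4 and 6 and -0.36 with the length covariate. Endothelial, smooth muscle and Schwann cell markers had medians of -0.11, -0.04 and -0.03. Whether the cell content of these libraries had a part in the antioxidant or other lower genes was not tested.

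**Figure D4:**
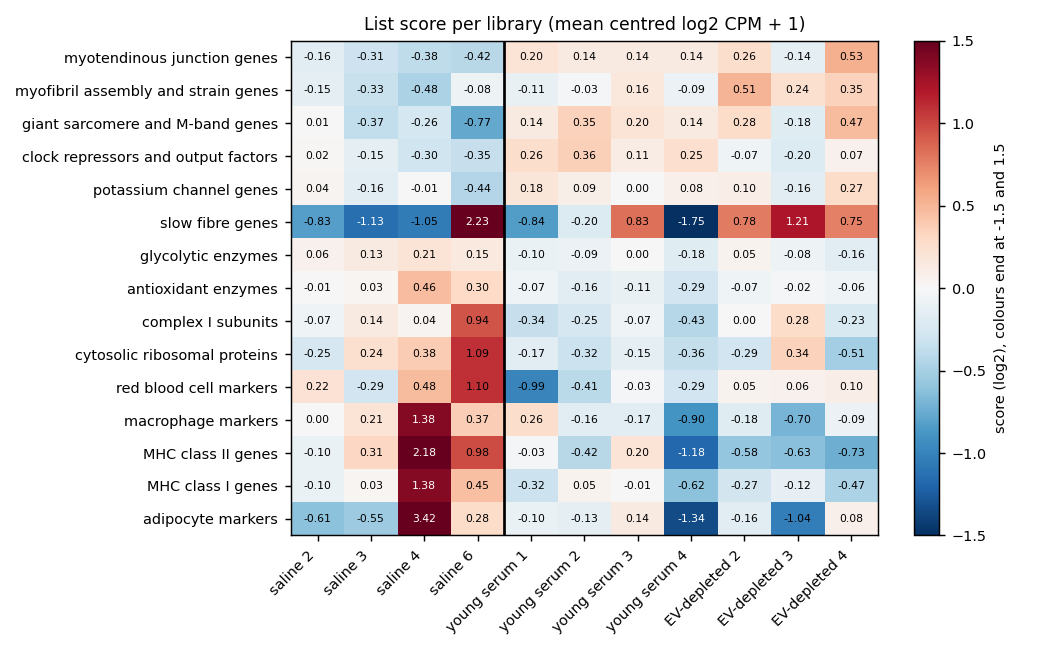
Score of 15 gene lists (rows) in each of the 11 libraries (columns), as the mean centred log2(CPM + 1) of the tested members; red is above and blue below the mean over libraries, and colours end at 1.5 either way. The black line parts saline from serum. Myotendinous, glycolytic and antioxidant scores do not overlap between the groups, but by narrow margins. The nearest saline and serum scores are -0.16 and -0.14 (myotendinous), 0.06 and 0.05 (glycolytic), and -0.01 and -0.02 (antioxidant). Adipocyte and class II scores are led by saline 4 (3.42 and 2.18) and the slow fibre score by saline 6 (2.23).

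Clock repressors and output factors, the negative limb of the circadian oscillator and the factors it drives, had a median of 0.28, with 11 of 12 above 0. Of these, 4 had an unadjusted p under 0.05 (12.8% of all tested genes in that direction). Without saline 4 and 6 the median was 0.11, and with the length covariate 0.15. Per2, a core repressor, was 1.07 above saline on the log2 scale with young serum and 0.28 with EV-depleted serum, and the sera differed at an unadjusted p of 0.008001. Hlf, an output factor, was 0.73 and 0.14 above saline (unadjusted p between the sera 0.006297), and Per1 0.85 and 0.29 (0.03349). Of the 12 genes 4 had an unadjusted p under 0.05 between the sera, against 2.23% of all tested genes, and none passed the adjustment. Such shares were not particular to this list. An unadjusted p under 0.05 between the sera was also reached by 13 of 38 TCA cycle and fatty acid oxidation genes. The same held for 3 of 7 clock activators and REV-ERB genes, 8 of 25 myofibril assembly genes and 7 of 37 complex I genes. Nr1d2, a nuclear receptor that represses clock genes, averaged 57.9 ± 16.3 and 85.3 ± 13.3 CPM in saline and pooled serum. The sources used here do not give the time of day of sampling.

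Slow fibre genes, which serve posture and endurance, did not pass the test in the pooled comparison. Their median was 0.37 for the pooled sera but -0.26 for young serum and 1.16 for EV-depleted serum, and none of the 14 reached an unadjusted p under 0.05 in the pooled comparison. Myh7, the slow myosin heavy chain, was at 43.2 to 944 CPM with saline, where saline 6 was the highest, and at 22.04 to 563 CPM with serum. The list median rested on single libraries: it was 1.19 without saline 6, -0.01 without saline 4 and 1.61 with the length covariate. Among fast-fibre markers Pvalb, the calcium buffer parvalbumin, was at 11780 to 20470 CPM with saline and 7110 to 10090 CPM with serum, with no overlap; its mean was 15330 ± 4038 against 8405 ± 1333 CPM (limma adjusted p = 0.093). Myh1, the fast IIx myosin, averaged 1355 ± 520 and 2880 ± 1166 CPM, and young serum 1 and 4 lay within the saline range.

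Among genes of growth and TGF-beta signalling 21 of 29 lay above 0 with a median of 0.23, and the median was -0.04 with the length covariate. Mstn encodes myostatin, the secreted brake on muscle growth, and averaged 35.7 ± 10.9 and 57.2 ± 14.6 CPM. Smad4, the shared transcription partner of the pathway, was at 24.1 to 37.8 CPM with saline and 38.2 to 52.1 CPM with serum. Tgfb3, a ligand, was at 31.0 to 39.7 and 41.2 to 49.8 CPM, whereas Tgfb1, another ligand, was at 7.13 to 20.7 CPM with saline and 4.76 to 6.58 CPM with serum. None of the 3 passed the adjustment (limma adjusted p 0.1063, 0.1097 and 0.1218). Of the atrophy and autophagy genes 13 of 24 lay above 0, with a median of 0.04; Foxo4, a transcription factor of the atrophy programme, was at 120 to 151 CPM with saline and 168 to 179 CPM with serum, and Ctsl, a lysosomal protease, at 74.9 to 99.0 and 45.1 to 73.5 CPM. Potassium channel genes had a median of 0.24, with 15 of 23 above 0, and one of 0.04 with the length covariate. Of the 23, 8 were higher at an unadjusted p under 0.05 (12.8% of all tested genes in that direction). Kcnma1, the large-conductance calcium-activated channel, averaged 22.2 ± 9.34 and 40.4 ± 9.87 CPM.

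Regeneration and ageing genes gave mostly small differences. Pax7, the marker of satellite cells, averaged 1.23 ± 0.194 and 1.87 ± 0.406 CPM (limma adjusted p = 0.1539), Myod1 31.6 ± 6.20 and 33.9 ± 5.11 CPM, and Myog 4.40 ± 0.619 and 3.93 ± 1.04 CPM. The satellite cell and myogenic list had a median of 0.10, with 8 of 14 tested above 0. Cell cycle and replication genes lay below 0 in 18 of 19 tested cases, with a median of -0.22, and one of -0.09 without saline 4 and 6. Of the 19, 6 were lower at an unadjusted p under 0.05 (12.9% of all tested genes in that direction). Gins2, a subunit of the replicative helicase, was at 11.6 to 19.2 CPM with saline and 0.951 to 9.63 CPM with serum, and averaged 16.2 ± 3.37 and 4.62 ± 2.97 CPM (limma adjusted p = 0.09832). The list of cell cycle inhibitors and senescence genes had a median of -0.23, with 12 of 16 tested below 0, and one of -0.13 without saline 4 and 6. Collagens and matrix genes had a median of -0.08, whose sign depended on the libraries: it was 0.18 without saline 4, -0.24 without saline 6 and -0.46 with the length covariate. Over all libraries Col1a1, Timp2, Igf1, Ppargc1a and Sirt1 had differences under 0.20 in size, and without saline 4 those of Col1a1 and Igf1 were 0.48 and 0.32.

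Of the muscle and ageing genes followed individually 5 stayed below the filter, and their mean CPM was compared in an exact permutation test over the 330 splits of 11 libraries into 7 and 4, which cannot give a two-sided p below 0.00303. Cdkn2a encodes the senescence-linked inhibitors INK4a and ARF, which a gene-level value does not separate. It was at 1.63, 1.08, 0.857 and 0.503 CPM in saline 2, 3, 4 and 6 and at 0.0520 to 0.412 CPM with serum. Young serum 2 was the highest serum library and still lay below saline 6. The means were 1.02 ± 0.470 and 0.139 ± 0.124 CPM (exact permutation p = 0.00303, adjusted over the 5 genes 0.007575). Without saline 4 and 6 the exact permutation p was 0.02778, the smallest that the fewer splits allow. Ccl2, a chemokine that draws monocytes, averaged 0.589 ± 0.123 and 0.296 ± 0.109 CPM. Its exact permutation p was 0.00303 over all libraries, with the same adjusted value, and 0.05556 without saline 4 and 6. The level of Ccl2 was lower in 7 of 7 serum libraries than in any saline library. Such separation in the lower direction was seen for 1.7% of the genes that passed the filter. The adjustment covered these 5 genes only. In limma without a filter, over all 18269 genes, neither Cdkn2a nor Ccl2 was called. Gdf15, Kl and Il6 did not pass (exact permutation p 0.1879, 0.6091 and 0.6939). These levels are near or below 1 CPM, worth 36.4 to 42.3 reads.

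**Figure D5:**
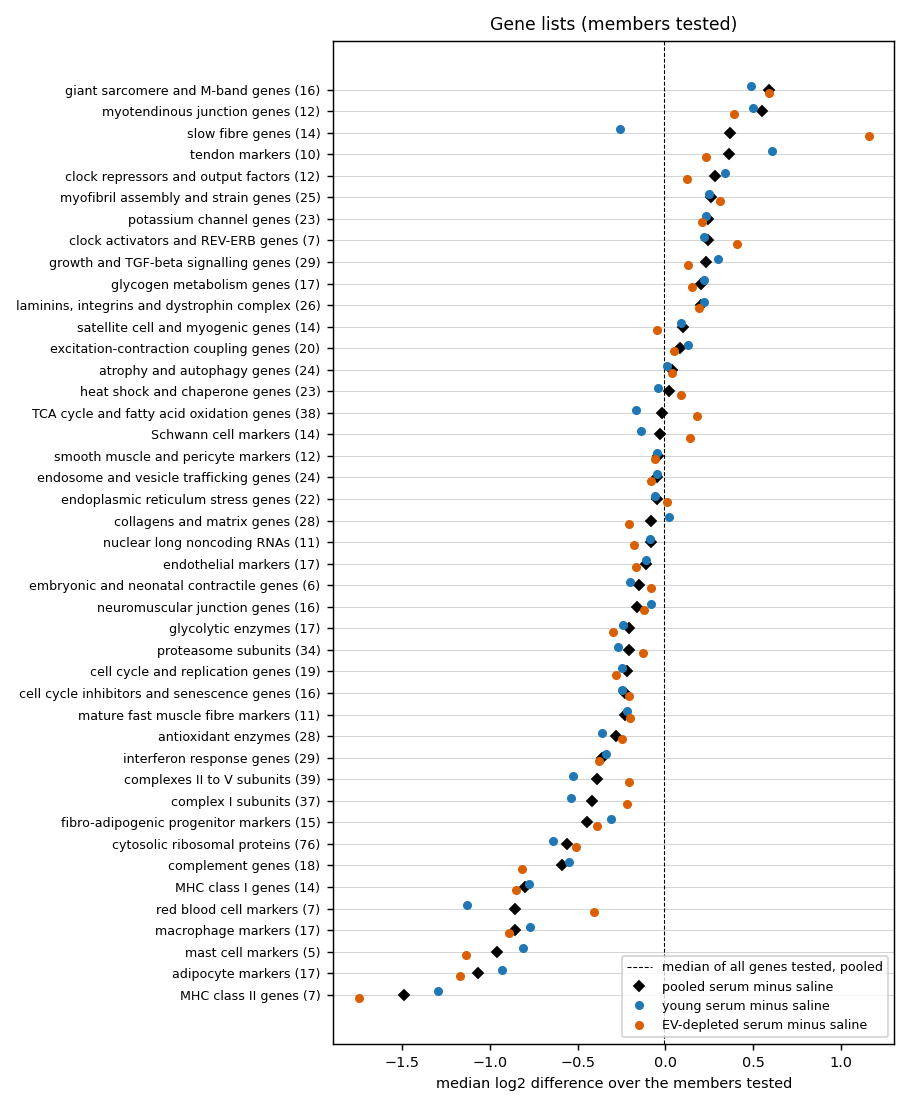
Median log2 difference (horizontal axis) of the members tested in each gene list with at least 5 such members (rows, number of members in brackets), for the pooled sera (black), young serum (blue) and EV-depleted serum (orange), all against the same 4 saline libraries; the dashed line is the median of all tested genes, -0.01. The medians of the sera lie farther apart for slow fibre genes (-0.26 and 1.16) than for any other list shown.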

How the data were processed

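RNA of tibialis anterior was measured in 11 libraries: 4 saline, 4 young serum and 3 EV-depleted young serum. FastQC, STAR, DESeq2 and the mm10 build are listed, without versions or roles, in the submitters' processing notes; the counting method and strand setting are not given in the sources used here. The deposited CPM table was scaled by the authors to 1000000 per library over its genes, with an added offset of 0.0001 that the values show. From the deposited TPM table only gene positions were used, because the authors divided CPM by genomic span. Of low CPM values, 76.3% to 80.5% were whole multiples of 1 read within 0.1 reads, too few to recover counts.

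Tests ran on log2(CPM + 1); the pseudocount of 1 understates fold changes of low genes. Genes with 1 CPM in at least 3 libraries were kept and 5082 removed. limma 3.58.1 in R 4.3.3 compared 7 serum with 4 saline libraries (eBayes with trend, two-sided, Benjamini-Hochberg at 0.05); a model of 3 groups gave the contrasts between and within sera. The fit was also run on simulated data, with independent noise and the same spread for a gene in both groups. The simulation held no uneven saline libraries and no length gradient, so it cannot show how stable the calls are. Exon lengths came from GENCODE M21, with 17893 symbols matched and 198 more by older symbol. Promoters came from RefSeq. Figures were drawn with matplotlib 3.10.9 in Python 3.11.15.

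The 46 gene lists, the rule and the tests were chosen with earlier results of these data known. The rule named up to 12 genes per direction (called genes first, then the smallest p; predicted genes, clone names, pseudogenes and Y-linked genes counted only), up to 4 members per list by moderated statistic, and a fixed set of muscle and ageing genes. A few further members were named for their function after values were seen (Ttn, Pfkm, Sod1). Alternatives were other pseudocounts, filters, scalings, weights and models, each library left out, saline 4 and 6 left out together, and, added after seeing the data, the length covariate.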

Additional observations from a re-analysis of the deposited data

Results flagged for a closer look

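Among 264 groups of 4 or 7 libraries, 20 (7.6%) held a library far from the rest by Dixon's criterion, where chance gives about 1 in 20. Saline 4 was high for Adipoq (319.8 CPM, others 8.763 to 28.84), Igf1 (34.14 CPM, others 7.574 to 9.049) and Tgfb1 (20.66 CPM, others 7.126 to 8.508), and for the endothelial score (0.49) and the endoplasmic reticulum stress score (0.31). Saline 6 was high for the slow fibre score (2.23) and the score of complexes II to V (1.07) and low for clock activators (-0.53). Saline 2 was high for Rps6ka2 (146.5 CPM, others 112.9 to 115.0), and saline 3 for Tm7sf2 (7.655 CPM, others 6.611 to 6.697).

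In the serum libraries, EV-depleted 4 was high for Flnc (1636 CPM, others 802.6 to 1150) and clock activators (0.44), and EV-depleted 3 for Cdkn1a (36.52 CPM, others 17.76 to 23.87) and the ribosomal protein score (0.34). Young serum 1 was high for Timp2 (191.7 CPM, others 86.97 to 130.4), Igf1 (20.63 CPM, others in its group 8.342 to 9.144), the myotendinous junction score (0.20, others 0.14) and the endoplasmic reticulum stress score (0.23). Young serum 4 was low for Tgfb1 (5.047 CPM, others in its group 6.398 to 6.575), and young serum 3 was high for the embryonic and neonatal contractile score (1.17).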

How the results depend on the processing

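The counts of called genes, 3 higher and 2 lower, were 3 and 3 with pseudocounts of 0.1 and 5, and 3 and 2 without a filter or with one at CPM 5. They were 0 and 0 with median-of-ratios scaling, 8 and 5 with quantile normalization, 2 and 0 with equal weights for both sera, 0 and 0 with array weights by group, and 2 and 2 with robust eBayes. Without saline 4 and 6 they were 0 and 2 (Kazald1 and Ighm), and with the length index as a covariate 0 and 2. Leaving out 1 library at a time gave 0 to 780 higher and 0 to 858 lower genes; the high counts came without saline 2. Between the sera 0 genes were called in each alternative run. The causes of these shifts were not tested.

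The replicate numbers in the titles were tried as a block, which gave 0 genes higher and 3 lower (Ighm, Lsp1 and Vasp). Saline 6 and young serum 1 share their number with no other library, so with the block they add nothing to the difference. The numbers share no stated animal or batch: of 9 same-numbered pairs 4 had deviations correlated above 0.1, from -0.28 to 0.30, so no pairing was used.

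Genes with an unadjusted p under 0.05 numbered, higher and lower, 916 and 394 without saline 4 and 6, 1030 and 1344 with the block, 1088 and 1349 with array weights, and 422 and 1323 with the length covariate.

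Of 4651 values of single genes under alternatives, 4426 kept direction and side of the threshold, 112 passed newly, 77 passed no longer and 36 changed sign. With the length covariate these were Myl4 (0.15), Etfb (0.06), Sel1l (-0.01), Clock (-0.09), Col1a1 (-0.25), Gdf11 (-0.12), Ppargc1a (-0.21), Sirt1 (-0.21) and Trim63 (-0.04). With quantile normalization it was Des (-0.07), and with the replicate block Col1a1 (-0.15), Ppargc1a (-0.10), Sirt1 (-0.07) and Trim63 (-0.01). Without saline 4 and 6 they were Tagln (0.15), Mcam (0.14), Pmp22 (0.10), Col3a1 (0.19), Adipoq (0.19), Ppargc1a (-0.42), Igf1 (0.38), Trim63 (-0.14) and Timp2 (0.12). Leaving out 1 library at a time gave sign changes for 9 genes, with ranges of -0.99 to 0.01 for Snhg11, -0.62 to 0.08 for Mcam, 0.00 to 0.22 for Myod1, -0.05 to 0.48 for Col1a1, -0.27 to 0.34 for Col3a1, -0.15 to 0.51 for Ppargc1a, -0.05 to 0.17 for Sirt1, -0.36 to 0.32 for Igf1 and -0.15 to 0.13 for Timp2. None of these genes was called.

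The saline group is small and uneven, and 1 library decides several lists. CPM without counts leaves the sampling error of low genes unmodelled. Positions are those of the deposited table, and the labels do not tie libraries to animals.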
